A study of Mus musculus with 6 samples.

Results

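The transporters for organic anions, organic cations and small peptides were followed in the choroid plexus (ChP) of embryonic and adult mice. They comprised 10 genes taken by symbol from the 24354 rows of the expression table: Slc22a5, Slc22a6, Slc22a8 and Slc22a17, Slco1a4, Slco1a5, Slco2a1, Slco2b1 and Slco3a1, and Slc15a2. All 10 were found. Expression was measured by translating ribosome affinity purification (TRAP), which pulls down ribosomes carrying a tagged subunit and sequences the mRNA bound to them, in 3 adult samples at postnatal day 60 and 3 samples at embryonic day 16.5 (E16.5). All animals had the genotype FoxJ1:cre x bacTRAP (EGFP:L10a), so that Cre under the Foxj1 promoter switched on an EGFP-tagged ribosomal protein, and no untagged or input library was analysed here. Foxj1 is a gene of multiciliated cells, among them ChP epithelium, and the tag can appear in any cell of the dissected tissue that has expressed Cre. By the study's methods a sample was a pool of 3 mice or of 3 litters of lateral ventricle ChP, while the series description counts 3 mice for each age, so p-values measure only the spread between these samples, which may be technical. The comparison asks which transcripts on ChP ribosomes differ between the embryo and the adult.

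The ChP epithelium separates blood from cerebrospinal fluid (CSF) and secretes the CSF. Besides ions and water it moves drugs, hormones and metabolites: organic anion transporters of the Slc22 family take up anions in exchange for dicarboxylates, organic anion transporting polypeptides of the Slco family carry bile salts, steroid conjugates, thyroid hormones and prostaglandins, and peptide transporters of the Slc15 family take up di- and tripeptides with protons. Uptake on the CSF side, followed by efflux towards the blood, is a known clearance route for organic anions in this tissue.

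Values are FPKM, fragment counts scaled for the length of the transcript and the number of mapped reads. Read numbers do not come with the table and were approximated from the spacing of low values. Relative to adult replicate 3, which had the fewest reads by that spacing, depth was 1.27-fold in adult replicate 1, 2.86-fold in adult replicate 2 and 3.98-fold to 5.04-fold at E16.5. Of the genes tested, 10.3% to 36.4% were listed at 0 in an adult library and 3.68% to 4.02% in an E16.5 library. An exact 0 can be a failed estimate: Ttr, the thyroxine carrier of ChP epithelium, was listed at 0 in all E16.5 libraries. The 12 ChP epithelial markers were all listed above 0 in at least 1 adult library, with a summed level of 39273 to 54611 FPKM in adult and 3569 to 3870 FPKM at E16.5. Ttr and Enpp2 supplied most of the difference, and the other 10 markers summed to 3465 to 4577 and 3295 to 3625 FPKM. Of the 12, 4 were called higher in adult (Ttr, Kl, Enpp2 and Kcnj13) and 2 lower there (Krt18 and Otx2). Foxj1, whose promoter drove Cre, was at 37.9, 45.8 and 62.4 FPKM in adult and at 208, 198 and 154 FPKM at E16.5, and 10 motile cilia markers summed to 255 to 428 and 993 to 1195 FPKM. The part of these levels in the results below was not tested. In bulk samples, fewer cells of a type and less RNA per cell cannot be told apart.

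Among the 10 transporters, Slc22a17 was the only one that passed the test for a difference between the ages, at 453 ± 50.1 FPKM in adult ChP and 214 ± 27.5 FPKM at E16.5 (SD, n = 3 each). Of the 10 genes, 8 had a mean above 1 FPKM over the 6 libraries and were tested with limma on log2(FPKM + 1). The test called 1 gene higher in adult and 0 genes higher at E16.5, with 7 not called, at a Benjamini-Hochberg adjusted p of 0.05. Without adjustment 1 of the 8 had a p under 0.05, where 31.3% of the 11601 genes tested did. Over all genes tested, 2.12% were called higher in adult, 8.83% higher at E16.5 and 10.9% in either direction. In 1 member every adult library lay above every E16.5 library, as in 7.39% of all genes tested, and in 0 members every adult library lay below, against 31.0% of all genes. The median log2 change of the 8 members, adult minus E16.5, was 0.11 and that of all genes tested was -0.86. This median moved between -1.57 and -0.15 with the scaling of the libraries, so the changes below are also read against it. Without rescaling it was also -1.25 or -1.48 when 0.1 or 0.01 was added to FPKM in place of 1. The part of values listed at 0 in this median was not tested, so a distance from it is not free of them.

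**Figure D1:**
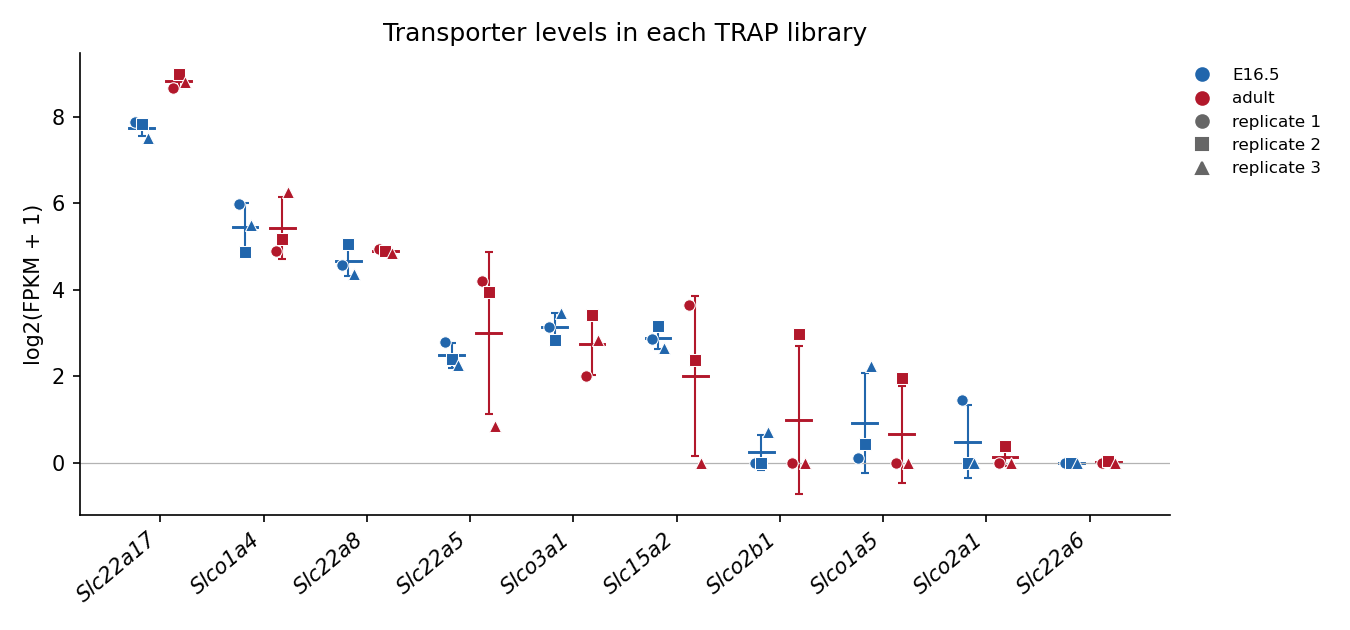
Level of each transporter in each TRAP library, as log2(FPKM + 1) on the vertical axis, with E16.5 in blue, adult in red, and a symbol for each replicate. Horizontal bars are means and error bars are SD over 3 libraries. Slc22a17 lies highest at both ages with the adult libraries above the E16.5 libraries, and the other genes overlap between the ages.

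Slc22a17 encodes an organic cation transporter-like protein of brain that has also been described as a cell surface receptor for lipocalin 2, a carrier of iron-binding siderophores. The gene (ENSMUSG00000022199.12) lies at chr14:54906304-54913132 on the minus strand of mm10. Adult replicates 1, 2 and 3 read 408, 507 and 444 FPKM, and E16.5 replicates 1, 2 and 3 read 232, 227 and 182 FPKM. The lowest adult library was well above the highest E16.5 library, and the ratio of the means was 2.12. These values rest on about 2941 to 9600 reads per library, so that counting error is small beside the spread between samples. The log2 change was 1.08 (standard error 0.23, 95% interval 0.54 to 1.62, limma adjusted p = 0.0308), 1.94 more than the median change over all genes. By mean FPKM the gene ranked 58 of 24354 in adult ChP and 270 at E16.5.

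As the one member that passed the test, its promoter is shown. The 250 bases before the start that RefSeq annotates on GRCm38.p6 (chr14:54913133-54913382, minus strand) are printed from 5′ to 3′, with CG dinucleotides in capitals.
Slc22a17: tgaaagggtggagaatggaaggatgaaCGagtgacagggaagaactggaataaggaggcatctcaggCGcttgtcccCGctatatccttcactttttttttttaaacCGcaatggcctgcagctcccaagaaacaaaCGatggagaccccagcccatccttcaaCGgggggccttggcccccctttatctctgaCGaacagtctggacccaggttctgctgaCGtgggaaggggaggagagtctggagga
This stretch holds 8 CG dinucleotides, more than 57.0% of the 32851 promoter windows of the same length, whose median is 6. None of 3 short motifs was found on either strand: GGATTA, bound by Otx factors, present in 6.25% of all windows; the E-box CACGTG (6.02%); and GTAAACA, bound by Fox factors (3.17%).

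The call of Slc22a17 was lost in some settings while its direction held. The change stayed positive in all 18 alternative settings, from 0.25 to 1.62, and lay 1.68 to 2.56 above the median of all genes in each. The largest distance, 2.56, came with 0.01 added to FPKM, where the median itself was -1.48. It was called in 11 of the 18 (adjusted p from 0.00827 to 0.521). Leaving out E16.5 replicate 1, 2 or 3 left the change at 1.15, 1.13 and 0.97 with a limma adjusted p of 0.0902, 0.0902 and 0.0936. In those 3 fits only 57, 43 and 112 of all genes were called, in place of 1270. Leaving out adult replicate 1, 2 or 3 gave 0.0453, 0.0412 and 0.0344. Rescaling every library to the same sum of FPKM lowered the change to 0.25 (limma adjusted p = 0.521), and a fit without the intensity trend left it at 1.08 (adjusted p = 0.135). The microRNA row Mir6236 alone supplied 51.0%, 32.7% and 51.7% of that sum in the adult libraries and 13.3% to 15.0% in the E16.5 libraries, and without this row the rescaled change was 0.92.

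**Figure D2:**
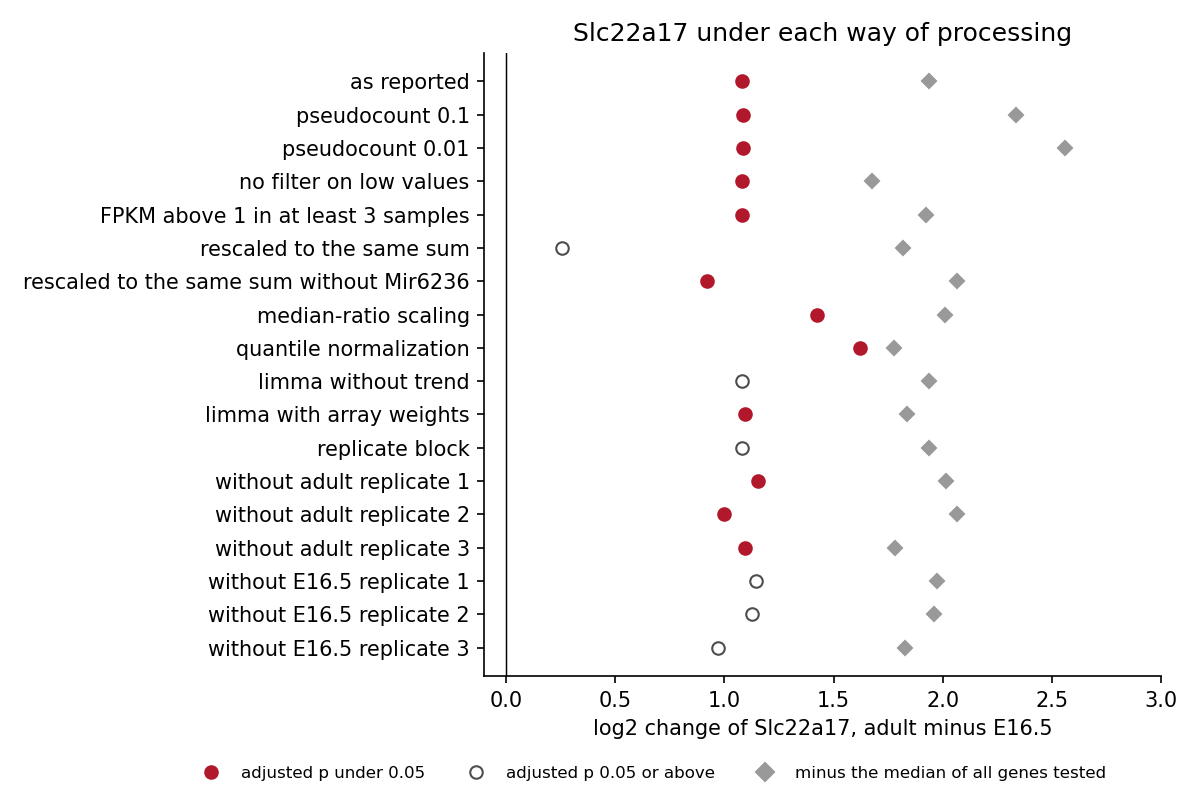
Log2 change of Slc22a17, adult minus E16.5, on the horizontal axis under each way of processing, listed on the vertical axis. Filled red circles have a limma adjusted p under 0.05, open circles do not, and grey diamonds show the change minus the median of all genes tested. The change ranges from 0.25 to 1.62, and the diamonds lie between 1.68 and 2.56.

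The 3 tested genes whose centred profile over the 6 libraries lay closest to that of Slc22a17 were 4833439L19Rik, Ndufa10 and 2610507B11Rik, at Euclidean distances of 0.23, 0.24 and 0.29 on the log2 scale. Ndufa10, a subunit of mitochondrial complex I, was at 121 ± 14.3 FPKM in the adult libraries and 59.3 ± 11.4 FPKM at E16.5 (SD, n = 3). These genes were picked out of all tested genes for their likeness, and none of them was itself called by limma (adjusted p = 0.0773, 0.0584 and 0.0671).

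A list of 4 genes covered the lipocalin partners of Slc22a17. Lcn2, the reported ligand, was listed at 0 in all 6 libraries. Lrp2, the large endocytic receptor that also binds lipocalin 2, was listed at 0 in every adult library and at 3.64, 2.03 and 3.53 FPKM at E16.5 (limma adjusted p = 0.0541). Of the 4 genes of this list 2 were tested and 0 were called by limma, with 1 unadjusted p under 0.05. Bdh2, an enzyme tied to mammalian siderophore synthesis, was at 31.4, 0 and 0 FPKM in the adult libraries and 6.59, 6.49 and 23.2 FPKM at E16.5, with overlap between the ages.

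Slc22a8 encodes OAT3, an organic anion transporter that in rodent ChP lies on the CSF-facing membrane. The adult libraries read 29.8, 28.9 and 27.7 FPKM and the E16.5 libraries 22.9, 32.3 and 19.6 FPKM. The adult values had an SD of 1.10 FPKM, the smallest relative to the mean among the 10 members in adult ChP, and lay inside the range of the E16.5 libraries. Between the ages the log2 change was 0.23 (standard error 0.37, 95% interval -0.62 to 1.09, limma adjusted p = 0.688), an interval that reaches from a fall to a rise. Slc22a6 encodes OAT1, the related dicarboxylate exchanger best known from kidney. It was listed at 0.0295 FPKM in adult replicate 2, worth about 0.983 of a read, and at 0 in the other 5 libraries, so it was not tested. At this depth Slc22a6 was not detectable above a single read, while about 277 to 1628 reads stood behind Slc22a8 in each library.

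Slc22a8 (chr19:8591254-8611835) and Slc22a6 (chr19:8618039-8628299) are neighbours on the plus strand, 6203 bases apart with 0 protein-coding genes between them. Their coding sequences are 68.3% identical and share 0 stretches of 50 bases, the length of a read, so reads of one are not expected on the other. The promoters of this pair are shown because the genes lie side by side and were measured at such different levels. The 250 bases before the RefSeq starts (GRCm38.p6, chr19:8592932-8593181 for Slc22a8 and chr19:8617746-8617995 for Slc22a6, plus strand) are printed with CG dinucleotides in capitals. The Slc22a8 window lies inside the GENCODE span of that gene given above, so the annotations place its first start differently.
Slc22a8: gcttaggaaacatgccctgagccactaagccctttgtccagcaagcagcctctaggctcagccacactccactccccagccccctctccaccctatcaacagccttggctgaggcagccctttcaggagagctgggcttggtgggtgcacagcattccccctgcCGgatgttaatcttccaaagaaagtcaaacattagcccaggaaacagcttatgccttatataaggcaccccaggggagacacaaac
Slc22a6: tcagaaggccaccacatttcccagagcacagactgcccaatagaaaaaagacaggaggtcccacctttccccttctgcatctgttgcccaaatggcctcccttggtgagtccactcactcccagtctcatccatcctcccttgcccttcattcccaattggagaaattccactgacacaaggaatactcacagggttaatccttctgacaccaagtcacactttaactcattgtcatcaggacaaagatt
They hold 1 and 0 CG dinucleotides. Of the 3 motifs searched on both strands, the window of Slc22a6 holds GGATTA, as 6.25% of all windows do, and that of Slc22a8 holds none. The match lies on the strand opposite to the one printed, where it reads taatcc. A match describes the letters in the window and shows no binding.

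Slc22a5 encodes OCTN2, the sodium-dependent carnitine transporter. Its values were 17.5, 14.5 and 0.787 FPKM in the adult libraries and 5.96, 4.22 and 3.76 FPKM at E16.5. Adult replicates 1 and 2 lay above every E16.5 library, and adult replicate 3 lay below every one, at about 6.95 reads. On the log2 scale the change was 0.52 (standard error 0.97, 95% interval -1.73 to 2.77, limma adjusted p = 0.736). Without adult replicate 3 it was 1.60 and still not called (limma adjusted p = 0.0749, with a range of 0.0749 to 0.978 over the alternatives). That library was the shallowest and carried the highest summed level of 10 astrocyte and oligodendrocyte markers, 73.0 FPKM against 4.82 and 14.2 FPKM in the other adult libraries, and the part of either in the low value was not tested.

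The measurement of Slc22a5 (chr11:53864542-53891660, minus strand) is limited by its paralogs, as 26.3% of its 50-base stretches also occur in other genes, mainly Slc22a21 and Slc22a4. The coding sequences of Slc22a5 and Slc22a21 are 90.5% identical over 1671 aligned bases. To show how far they agree, exon 8 of both is printed from the transcript sequences of GENCODE vM21 (mm10, chr11:53867523-53867705 and chr11:53953001-53953183, minus strand), with the 8 differing bases in capitals.
Slc22a5: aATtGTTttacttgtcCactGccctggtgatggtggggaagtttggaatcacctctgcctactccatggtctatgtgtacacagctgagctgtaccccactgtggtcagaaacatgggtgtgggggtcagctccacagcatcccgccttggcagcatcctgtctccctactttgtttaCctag
Slc22a21: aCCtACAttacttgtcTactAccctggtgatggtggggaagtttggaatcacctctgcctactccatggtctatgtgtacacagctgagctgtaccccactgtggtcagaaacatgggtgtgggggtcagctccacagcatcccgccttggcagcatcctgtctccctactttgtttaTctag
The run between the differing ends is 157 bases long, so a read of 50 bases within it fits both genes. Slc22a21 was listed above 0 in 1 library (0.0603 FPKM in E16.5 replicate 2) and Slc22a4 at 0 in all 6, and how the authors' estimate split shared reads between them is not given in the sources used here. Of 10 other genes of the carnitine shuttle, which carries fatty acids into mitochondria, 7 were tested and 0 were called by limma, with 0 at an unadjusted p under 0.05. The most abundant, Cpt1a, which couples fatty acids to carnitine, was at 66.8 ± 6.56 FPKM in the adult libraries and 49.2 ± 7.51 FPKM at E16.5 (SD, n = 3, log2 change 0.44, limma adjusted p = 0.335).

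Slco1a4 encodes OATP1A4, which carries bile salts, steroid conjugates and thyroid hormones, and was the most abundant Slco gene of the set. Adult ChP gave 28.7, 34.8 and 75.1 FPKM and E16.5 ChP 62.0, 28.5 and 44.2 FPKM. The ranges overlapped almost wholly, with means of 46.2 ± 25.2 and 44.9 ± 16.7 FPKM (SD, n = 3). Its log2 change was -0.02 (standard error 0.48, 95% interval -1.13 to 1.10, limma adjusted p = 0.983). Slco1a4 is also known from brain endothelium. The summed level of 12 endothelial markers was 2.11, 29.2 and 0.489 FPKM in the adult libraries and 17.3, 12.7 and 41.3 FPKM at E16.5. Kdr was above 0 in every library, at 12.3 to 36.7 FPKM at E16.5, while Cldn5, the tight junction gene of brain endothelium, was listed at 0 in 5 of the 6. Their part in the level of Slco1a4 was not tested.

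Slco1a5 encodes a closely related polypeptide with overlapping substrates that has been placed on the CSF side of rodent ChP. Its values were 0, 2.85 and 0 FPKM in the adult libraries and 0.0672, 0.347 and 3.69 FPKM at E16.5. It exceeded 1 FPKM in a single library of each age, and elsewhere rested on at most about 12.9 reads. The log2 change was -0.27 (standard error 0.84, 95% interval -2.21 to 1.68, limma adjusted p = 0.845). Slco1a5 (chr6:142234227-142322981) lies 378027 bases from Slco1a4 (chr6:141805440-141856199), both on the minus strand with 3 protein-coding genes between them. The coding sequences are 89.4% identical over 2010 bases, yet only 100 of their 50-base stretches (5.10%) are shared. The longest run that they share within an exon is 123 bases, shown here with coding exon sequence from GENCODE vM21 (mm10, minus strand, exon 7 of Slco1a4 at chr6:141825048-141825200 and exon 8 of Slco1a5 at chr6:142253097-142253249) and the 4 differing bases in capitals.
Slco1a4: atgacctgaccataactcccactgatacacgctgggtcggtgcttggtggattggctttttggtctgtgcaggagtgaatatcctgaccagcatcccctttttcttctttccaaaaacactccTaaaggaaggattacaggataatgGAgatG
Slco1a5: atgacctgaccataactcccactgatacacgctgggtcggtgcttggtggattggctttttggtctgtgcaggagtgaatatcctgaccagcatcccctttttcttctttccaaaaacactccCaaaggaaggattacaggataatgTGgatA
Not all of the 100 shared stretches lie within this run, and every other coding stretch of the pair differs by at least 1 base. By comparison, Slc22a5 and Slc22a21 share 309 coding stretches (19.1% of those of Slc22a5). Over all transcripts, 1.61% of the stretches of Slco1a4 and 3.56% of those of Slco1a5 occur in other genes, which include Slco1a1, Gm6614 and Slco1a6.

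Slco3a1, a broadly expressed member that carries prostaglandins and thyroid hormone, was listed at 2.98, 9.63 and 6.15 FPKM in the adult libraries and at 7.78, 6.11 and 9.93 FPKM at E16.5. It was above 0 in every library, and the groups overlapped. The log2 change was -0.39 (standard error 0.62, 95% interval -1.84 to 1.05, limma adjusted p = 0.688). None of the 50-base stretches of Slco3a1 (chr7:74275419-74554780, minus strand) occurs in another gene.

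Slco2b1 encodes OATP2B1, a carrier of steroid sulfates. It was listed at 6.80 FPKM in adult replicate 2 and 0.633 FPKM in E16.5 replicate 3, and at 0 in the other 4 libraries. The log2 change of 0.75 (standard error 0.88, 95% interval -1.29 to 2.80, limma adjusted p = 0.575) thus rests on adult replicate 2, with about 250 reads. A single read would have been worth 0.0613 and 0.0776 FPKM in adult replicates 1 and 3, where the gene is listed at 0. Adult replicate 2 also had the highest adult sums of endothelial markers (29.2 FPKM) and of 10 macrophage markers (5.52 FPKM against 0.0695 and 0.178 FPKM in the other adult libraries), and their part was not tested. Exons of Slco2b1 (chr7:99657804-99711340, minus strand) overlap those of Gm15635 and Gm34280 on the other strand. Without a stated strand setting for the FPKM, reads of these genes cannot be told apart.

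Slco2a1 encodes the prostaglandin transporter, which takes up prostaglandins for breakdown. It was listed at 1.75 FPKM in E16.5 replicate 1, from about 148 reads, at 0.294 FPKM in adult replicate 2 and at 0 in the other 4 libraries. With a mean of 0.340 FPKM it was not tested, and 1 library set the level of each age. E16.5 replicate 1 also had the highest sum of 10 neuron and neural progenitor markers, 98.8 FPKM against at most 5.67 FPKM in the others, and whether this bears on Slco2a1 was not tested. Exon sequence of Slco2a1 also overlaps the gene n-R5s89 on the other strand. Without a stated strand setting, reads of the overlap cannot be assigned to either gene.

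Slc15a2 encodes PEPT2, the proton-coupled carrier of di- and tripeptides, which clears neuropeptide fragments from the CSF. Levels of 11.6, 4.21 and 0 FPKM in adult stood against 6.30, 7.92 and 5.26 FPKM at E16.5. Adult replicate 1 lay above all E16.5 libraries and adult replicates 2 and 3 lay below them. The log2 change was -0.88 (standard error 0.97, 95% interval -3.14 to 1.38, limma adjusted p = 0.551), close to the median of all genes tested. Without adult replicate 3, the shallowest library, it was 0.13. One read would have been worth 0.0855 FPKM of Slc15a2 (chr16:36750177-36784962, minus strand) in that library. Of 12 genes of proton exchange and peptide breakdown 7 were tested and 0 were called by limma, with 2 at an unadjusted p under 0.05. The most abundant of these, Cndp2, a cytosolic dipeptidase, was at 33.1 ± 26.1 FPKM in the adult libraries and 73.5 ± 11.4 FPKM at E16.5 (SD, n = 3, log2 change -1.42, limma adjusted p = 0.142).

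**Figure D3:**
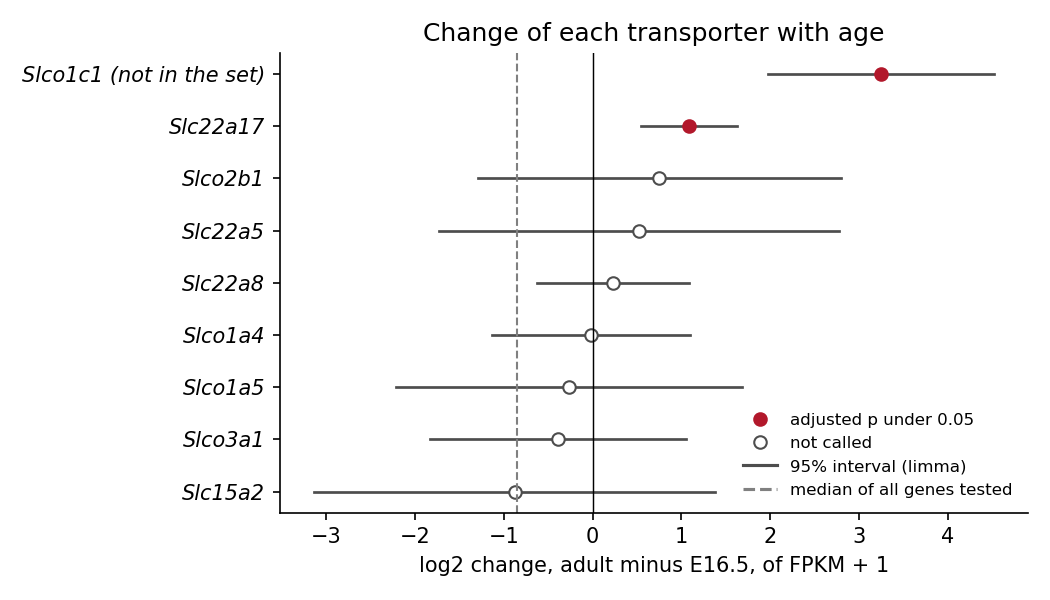
Log2 change of each tested transporter, adult minus E16.5, on the log2(FPKM + 1) scale, with 95% intervals from limma as horizontal lines. Red points passed an adjusted p of 0.05, open points did not, and the dashed line is the median of all genes tested (-0.86). Slc22a17 (1.08) and the related Slco1c1 (3.24), which is not one of the 10 genes, are the points that passed.

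The intervals show how unevenly the members were measured. Slc22a17 and Slc22a8 had standard errors of 0.23 and 0.37, whereas those of Slc22a5, Slc15a2, Slco2b1 and Slco1a5 were 0.84 to 0.97. Each of these 4 genes was below 1 FPKM in at least 1 library. For Slc15a2, the widest, the interval ran from -3.14 to 1.38.

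**Figure D4:**
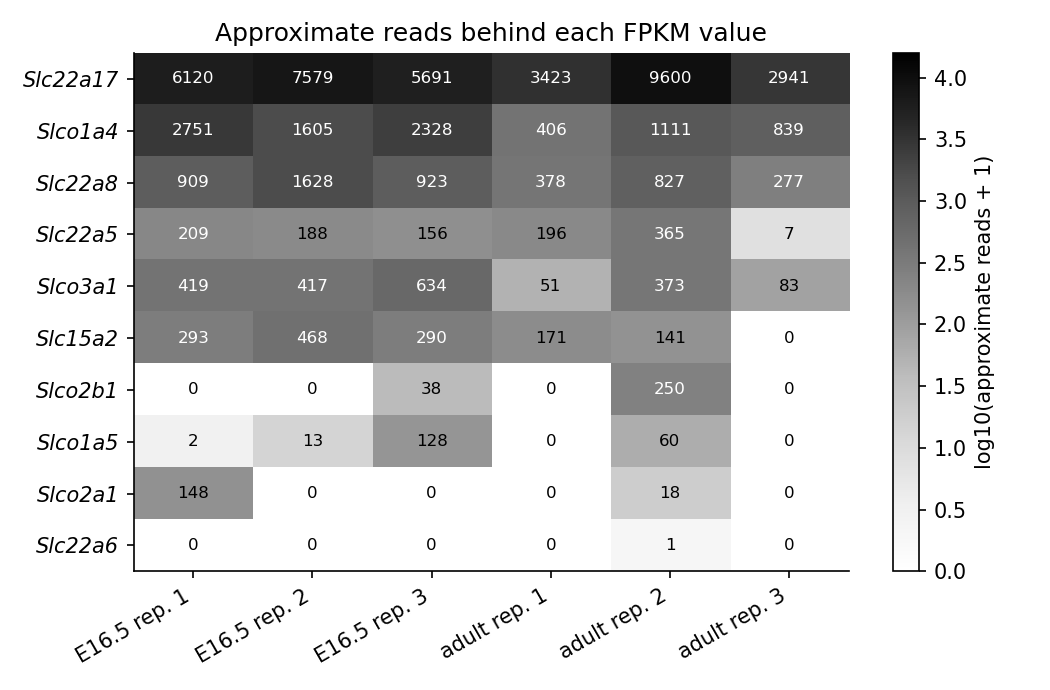
Approximate number of reads behind each FPKM value, for the 10 transporters in rows and the 6 libraries in columns, with darker grey for more reads on a log10 scale. Slc22a17, Slco1a4 and Slc22a8 have about 277 to 9600 reads in every library, and the genes in the 5 lowest rows are at 0 in 1 or more libraries.

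Ordered by mean FPKM, which is per length, Slc22a17 led at both ages and its libraries lay apart from those of every other member. Slco1a4 and Slc22a8 followed at both ages. These neighbours overlapped with each other and lay apart from the next gene. In adult ChP the order went on with Slc22a5, Slco3a1, Slc15a2, Slco2b1, Slco1a5, Slco2a1 and Slc22a6, and each of these overlapped with its neighbour. At E16.5 the order went on with Slco3a1, Slc15a2 and Slc22a5. Slc15a2 overlapped with the genes on either side, while every Slco3a1 library lay above every Slc22a5 library. Below these 3 genes and apart from them came Slco1a5, Slco2a1, Slco2b1 and Slc22a6, each of which overlapped with its neighbour in the order. At E16.5, 6 to 7 of the 10 members were above 1 FPKM in a library, and in adult ChP 4 to 8 were.

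The summed level of the 10 transporters was 499, 609 and 554 FPKM in the adult libraries and 339, 306 and 269 FPKM at E16.5. Slc22a17 made up 81.8%, 83.3% and 80.2% of this sum in adult and 68.5%, 74.1% and 67.7% at E16.5, a share within the library that does not depend on how libraries are scaled. The other 9 genes together came to 90.6, 102 and 110 FPKM in the adult libraries and 107, 79.4 and 87.1 FPKM at E16.5, with overlap between the ages. No test was made of these sums, since their largest term is the gene already described.

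Of 6 pairs of members set for a comparison of their ratio within a library, 5 held a gene listed at 0 in 1 or more libraries. There the ratio is set by the pseudocount, so these ratios are not given. In the remaining pair the log2 ratio of Slc22a17 to Slc22a5, taken on FPKM + 1, was 5.82 ± 1.87 in adult and 5.26 ± 0.190 at E16.5 (SD, n = 3, exact two-sided permutation p = 1). In adult replicate 3, with its low Slc22a5, it was 7.96, and it was 4.47 and 5.04 in the other adult libraries. Tests of 3 samples against 3 allow no p below 0.1.

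Among the 38 other Slco, Slc22, Slc15 and Slc47 rows of the table, 25 were listed at 0 in all libraries and 5 were tested. Their median log2 change was -1.16. Slco1c1, the thyroxine transporter of brain endothelium and ChP, was the one called. Its levels were 133, 146 and 64.1 FPKM in adult ChP and 19.7, 5.29 and 10.6 FPKM in E16.5 ChP. Every adult library lay above every E16.5 library, and the change on the log2 scale was 3.24 (standard error 0.55, limma adjusted p = 0.0156). Leaving out E16.5 replicate 1, 2 or 3 left the change at 3.67, 2.81 and 3.25, with a limma adjusted p of 0.0505, 0.0657 and 0.0696. In adult ChP Slco1c1 stood above Slco1a4 in replicates 1 and 2 and below it in replicate 3, while at E16.5 it stood below Slco1a4 in each library. Slco1c1 and Slco1a4 lie on the same chromosome, at chr6:141524368-141570177 and chr6:141805440-141856199. The other tested genes, Slc15a4, Slc22a18, Slc22a19 and Slc22a23, had log2 changes of -1.37 to -0.89 and were not called.

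Transport by these proteins depends on partners, and 73 such genes were followed in 8 lists. Of these 47 were tested, 7 rose in adult ChP, where 2.12% of all genes tested did, and 3 were lower there, against 8.83% of all genes. The median log2 change of the 47 was -0.30. Leaving out any one E16.5 replicate left 1 of the 7 and 0 of the 3. Among genes that keep the sodium gradient, which drives sodium-coupled uptake such as that of carnitine, the pump subunits Atp1b3 and Atp1b1 rose. Atp1b3 was at 70.5, 199 and 97.2 FPKM in the adult libraries and at 20.7 ± 2.34 FPKM at E16.5 (SD, n = 3), with a log2 change of 2.37, a standard error of 0.43 and a limma adjusted p = 0.0201. Atp1b1 was at 361, 490 and 369 FPKM in the adult libraries and at 112, 126 and 110 FPKM at E16.5 (log2 change 1.79, standard error 0.24, limma adjusted p = 0.00801). In both genes every adult library lay above every E16.5 library, and they were called in 13 and 14 of 18 alternatives. Fxyd1, a regulator of the pump, was at 414 ± 218 FPKM in the adult libraries and 807 ± 345 FPKM at E16.5 and was not called (SD, n = 3, limma adjusted p = 0.174). Slc13a2 and Slc13a5, dicarboxylate and citrate carriers, were listed at 0 in all libraries. The related Slc13a3 was at 0.634 FPKM in adult replicate 2 and at 2.87 FPKM in E16.5 replicate 1. Slc13a3 was listed at 0 in the other libraries and was not tested.

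Of 8 efflux pumps for organic anions, 4 were tested and Abcc4 rose. Abcc4 (MRP4) exports conjugated anions, cyclic nucleotides and prostaglandins, and was at 30.8, 51.1 and 29.8 FPKM in the adult libraries and at 6.33, 6.79 and 8.54 FPKM at E16.5 (log2 change 2.18, standard error 0.44, limma adjusted p = 0.0260). Its adult libraries all lay above the E16.5 libraries, and it was called in 12 of 18 alternatives. Abcc1, a related pump of the ChP, was at 18.8 ± 2.90 FPKM in the adult libraries and 9.29 ± 3.90 FPKM at E16.5 and was not called (SD, n = 3, limma adjusted p = 0.207).

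Prostaglandins are substrates of Slco2a1 and Slco3a1, and of 13 genes that make or break them 10 were tested. Their median log2 change was -1.81, against -0.86 for all genes tested. By limma 2 were called higher in adult and 1 lower, and 7 had an unadjusted p under 0.05. Over all genes these shares were 2.12%, 8.83% and 31.3%. In 5 of the 10 every adult library lay below every E16.5 library and in 2 above, against 31.0% and 7.39% of all genes. Ptgis, prostacyclin synthase, rose from 5.72 ± 6.64 to 47.1 ± 27.7 FPKM (SD, n = 3, log2 change 3.12, limma adjusted p = 0.0465) and Ptgds, prostaglandin D synthase, from 277 ± 53.7 to 665 ± 211 FPKM (SD, n = 3, log2 change 1.23, limma adjusted p = 0.0414). They were called in 6 and 8 of 18 alternatives. Ptgs1, cyclooxygenase 1, was listed at 0 in every adult library and at 10.3, 15.0 and 6.26 FPKM at E16.5 (limma adjusted p = 0.0198). Ptgds is also a gene of the leptomeninges. Of 9 leptomeningeal markers 7 were listed at 0 in every adult library, and the summed level of 644 to 1185 FPKM in adult and 315 to 433 FPKM at E16.5 came mainly from Ptgds itself and Slc13a4. Without Ptgds the sums were 158 to 287 and 70.4 to 93.4 FPKM. Without Ptgds and Slc13a4 they were 0 in every adult library and 17.4 to 70.1 FPKM at E16.5, the other direction. Slc13a4 was also called higher in adult, at 210 ± 68.3 against 42.4 ± 17.5 FPKM (SD, n = 3, limma adjusted p = 0.0193), and Crabp2, at 0 in every adult library, was called lower there. The part of leptomeningeal cells in the level of Ptgds was not tested.

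Of 6 scaffold genes that anchor transporters at the apical membrane all were tested, and Ezr, the actin linker ezrin, was lower in adult. It was at 719, 717 and 848 FPKM in the adult libraries and 1300, 1289 and 1551 FPKM at E16.5, a log2 change of -0.86 (limma adjusted p = 0.0441) that is the same at 2 decimals as the median of all genes tested, and it was called in 6 of 18 alternatives. Of 5 transcription factors tested, Ahr, the aryl hydrocarbon receptor, was lower in adult. It was listed at 0, 0 and 0.925 FPKM in the adult libraries and at 6.56, 7.64 and 12.5 FPKM at E16.5 (log2 change -2.95, limma adjusted p = 0.0325), and was called in 9 of 18 alternatives. Nfe2l2, the oxidative stress factor NRF2, was at 39.3 ± 20.4 FPKM in the adult libraries and 54.1 ± 5.92 FPKM at E16.5 and was not called (SD, n = 3, limma adjusted p = 0.385).

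**Figure D5:**
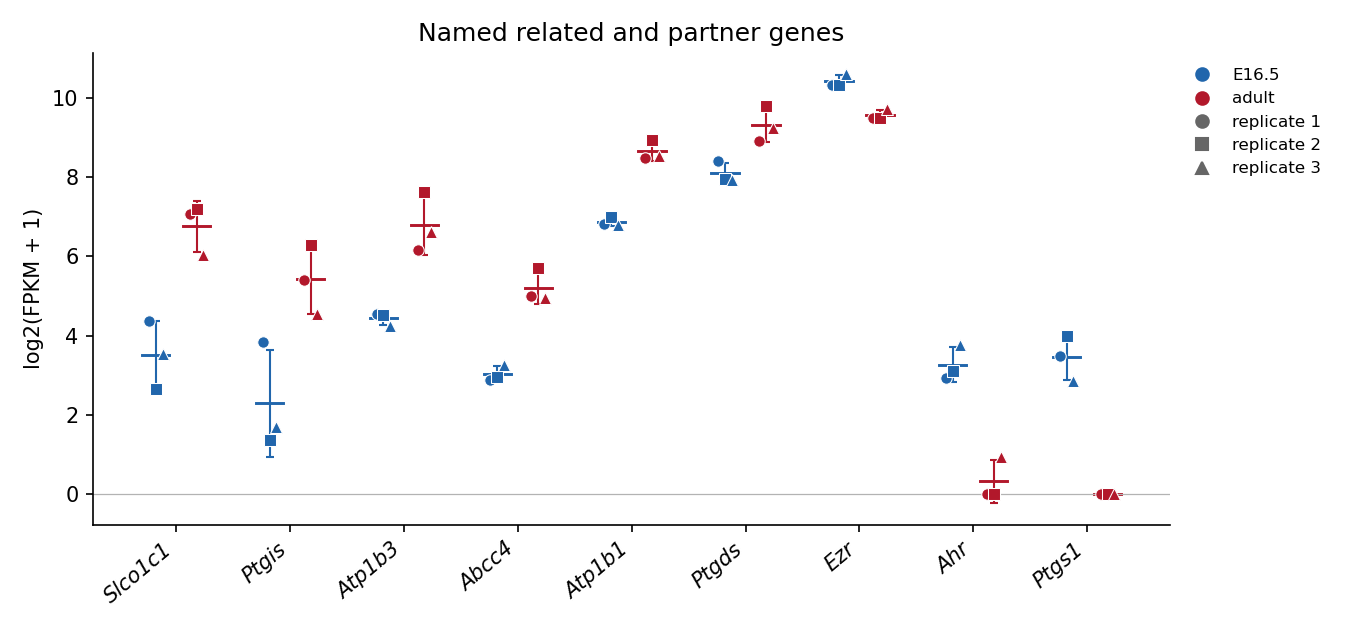
Named related and partner genes that passed an adjusted p of 0.05, as log2(FPKM + 1) in each library, ordered from the largest rise in adult to the largest fall. Colours, symbols and bars are those of the plot of transporter levels. In the 6 genes plotted that were higher in adult the red symbols lie above the blue ones, and in Ezr, Ahr and Ptgs1 they lie below.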

How the data were processed

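TRAP-seq libraries of ChP, 3 adult and 3 E16.5, were assigned to the ages given in their labels. By the study's methods, the authors aligned single-end reads of 50 bases to mm10 with STAR (2.4.0 in the submitters' processing notes) and computed the deposited FPKM with Cuffquant of Cufflinks. The annotation and strand setting are not given in the sources used here, and the authors' counts were not analysed here. FPKM were used as deposited, with a pseudocount of 1 on the log2 scale. Genes with a mean FPKM above 1 were tested with limma 3.58.1 (R 4.3.3) with an intensity trend, and p was adjusted over all 11601 genes tested. The test was tried on simulated data. The members and gene lists were chosen with earlier results of these data known. Named beside the members were up to 3 called genes in each direction and the most abundant tested gene of each list, and some of these are not reported here. Positions, transcripts and shared 50-base stretches came from GENCODE vM21, and promoters, matched for 9 of the 10 members, from RefSeq. Depth was read from low values of 1305 single-transcript genes, with 22 to 35 values per library, at a transcript length minus 200 bases. Of these values, 54.5% to 90.9% lay within 0.1 of a whole read. Reads are not independent molecules, so read numbers describe counting error only.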

Additional observations from a re-analysis of the deposited data

How the results depend on the processing

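Each result was recomputed in 18 alternatives, and the within-library ratios with a pseudocount of 0.1. The count of members higher in adult (1) became 0 after rescaling to the same sum, in limma without trend, with a replicate block and at an adjusted p of 0.01, and ranged from 0 to 1 with each library left out. The count of members higher at E16.5 stayed at 0. The other family members higher in adult (1) became 0 at an adjusted p of 0.01 and ranged from 0 to 1 with a library left out. The partner genes higher in adult (7) became 1 after rescaling, 4 without trend and 2 at an adjusted p of 0.01, and ranged from 1 to 7. Those higher at E16.5 (3) became 5 at a pseudocount of 0.01, 12 after rescaling, 1 after quantile normalization and 0 at an adjusted p of 0.01, and ranged from 0 to 7, with 7 without adult replicate 2 and 0 without any one E16.5 replicate. Every fit with a library left out holds fewer samples. Leaving out adult replicate 1, 2 or 3 gave 146, 219 and 357 of all genes higher in adult. Higher at E16.5 were 541, 1704 and 1364. The cause of any shift listed here was not tested.

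Uncalled changes turned sign in some settings. Slco1a4 was at 0.32 after median-ratio scaling and 0.38 after quantile normalization, and from -0.43 to 0.25 with a library left out. Slco3a1 was at 0.64 after quantile normalization. After rescaling to the same sum Slc22a8 was at -0.57, Slc22a5 at -0.18 and Cpt1a at -0.38. With a library left out, Slco1a5 ranged from -0.68 to 0.056, Slc15a2 from -1.70 to 0.13 and Slc22a5 from -0.083 to 1.60. The log2 ratio of Slco3a1 to Slco1a5, set by the pseudocount where Slco1a5 is at 0, differed between the ages by 0.62 at a pseudocount of 0.1, against -0.12. Slco1a5 had a value in 15 of the 18 alternatives and Slco2b1 in 16, as they did not pass the filter on low values in the rest.

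Replicates carry numbers in the labels at both ages, and same-numbered samples did not deviate together (r of 0.000895, 0.0439 and 0.0150 over genes for numbers 1, 2 and 3). The main fit therefore pairs no samples. With 3 samples at each age this check cannot exclude that same-numbered samples were handled together. With the replicate block 0 members were higher in adult (Slc22a17 adjusted p = 0.0683), with 4 partner genes higher in adult and 0 at E16.5, and over all genes 112 and 452 in place of 246 and 1024. The split of all calls, 19.4% higher in adult, was 3.55% after rescaling, 34.4% after median-ratio scaling and 50.9% after quantile normalization. Without adult replicate 2 it was 11.4%, and without E16.5 replicate 1, 2 or 3 only 57, 43 and 112 genes were called.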
